A study of Mus musculus with 2 samples.

Results

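A set of 10 genes encoding RNA-binding proteins that set how long cytokine mRNAs last were described in restimulated Tc17 cells, which are CD8 T cells polarised to make interleukin-17. The 10 members were picked by gene symbol from the 32285 genes counted, and each symbol matched 1 row. They are Zc3h12a, Zc3h12c, Zc3h12d, Rc3h1, Rc3h2, Zfp36, Zfp36l1, Zfp36l2, Arid5a and Elavl1. Their levels were set against the transcripts of Il17a, Ifng and Il2 in the same cells, within each library.

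CD8 T cells from mesenteric lymph nodes of C57/B6N mice were polarised in culture with a Th17 reagent kit and restimulated for 3 h with PMA at 100 ng/ml and ionomycin at 10 μg/ml. The control group was wild type, and the other group came from Nfatc1f/f×Cd4-Cre mice, in which Cre under the Cd4 promoter acts in all T cells from the thymus on. Both groups received the same polarisation and restimulation, so neither holds unstimulated cells. Each group was 1 single-cell library, and the sources used here do not give the age or number of the mice. Nfatc1, the floxed gene, ran against its label, at 39.8 counts per 1000000 (CPM) in the library labelled wild type and 136 CPM in the library labelled deficient. The 3′-end counts need not cover the deleted part of the gene, so this checks the deletion neither way. The libraries are therefore called wild-type-labelled and deficient-labelled, and every direction between them rests on those labels.

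After filtering, 1018 wild-type-labelled and 709 deficient-labelled cells remained, with 24452538 and 17898193 unique molecular identifiers (UMIs, each 1 captured mRNA molecule). The median cell held 20906 and 21436 UMIs, and no cell barcode occurred in both libraries. Of the cells, 99.4% and 99.6% expressed 2 or more of 6 CD8 T-cell genes, and 96.6% and 96.5% expressed Cd8b1. Summed B-cell, myeloid, NK and dendritic markers lay between 0 and 3.97 CPM per list, against 2122 and 2093 CPM for the CD8 list, with the NK markers Ncr1 and Klrb1c at 0 in both libraries. With 1 library per group no difference has a replicate check, so no p-value is given. The 95% intervals below cover counting error only and leave out the spread between cells and between cultures.

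As background, many cytokine mRNAs are short-lived because their 3′ untranslated regions carry AU-rich elements and stem-loops that decay factors recognise. The Zfp36 family binds AU-rich elements and recruits the deadenylase complex that shortens the poly(A) tail. Regnases, encoded by the Zc3h12 genes, are endonucleases that cut stem-loop mRNAs, while the roquins, encoded by Rc3h1 and Rc3h2, bind stem-loops and recruit deadenylases. Arid5a and HuR, the product of Elavl1, are known for stabilising target mRNAs, Arid5a by competing with Regnase at the same stem-loops.

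As examples of AU-rich sequence, which the Zfp36 family binds, stretches of the 3 cytokine mRNAs and of 4 members were taken. They come from the GENCODE M21 annotation of the mm10 build. Each window is 30 bases of the longest annotated 3′ untranslated region, written 5′ to 3′ on the mRNA strand with T for U. Capitals mark ATTTA, the core pentamer of AU-rich elements, and overlapping pentamers run together as one stretch of capitals. For each gene the window with the most ATTTA was taken, so its number of pentamers is a maximum. Windows chosen in this way hold 2 pentamers in Rc3h1 and Rc3h2 and 1 in Zc3h12a, Zc3h12c, Zc3h12d and Arid5a, which are not printed.

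Il17a, chr1:20734203-20734232, plus strand: ATTTAtatgagctATTTAtgaatctATTTA
Ifng, chr10:118445333-118445362, plus strand: ctATTTAttaatATTTAaaactATTTAtat
Il2, chr3:37121039-37121068, minus strand: tATTTATTTAaatATTTAactttaATTTAt
Zfp36, chr7:28376956-28376985, minus strand: tttATTTAtgacgactttATTTAttgtatt
Zfp36l1, chr12:80108433-80108462, minus strand: agcttATTTAacttatcaaaacgtATTTAt
Zfp36l2, chr17:84184923-84184952, minus strand: aatatgaaaaactATTTAacttATTTAtta
Elavl1, chr8:4285777-4285806, minus strand: ttATTTATTTATTTATTTAtttttATTTAt

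The cytokine windows hold 3 to 4 pentamers each, and the whole regions hold more. Il17a has 7 ATTTA in 637 bases, a number reached by 0.628% of the 2229 genes with a 3′ untranslated region within 20% of that length. Il2 has 7 in 581 bases, reached by 0.472% of genes of similar length, and Ifng has 6 in 631 bases, reached by 1.37%. Among all 21037 coding genes with such a region, 65.2% hold at least 1 ATTTA and 27.6% at least 1 TATTTAT, the longer form preferred by the Zfp36 family, which contains ATTTA. The motifs were searched on the mRNA strand alone, overlapping matches included, and a match is a description of the sequence, not a binding site.

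Several members carry the same motif in their own mRNA. Zfp36 has 3 TATTTAT in 774 bases, which 1.29% of genes of similar length reach, against 19.4% with any. Zfp36l1 and Zfp36l2 also have 3 each, in 1835 and 1822 bases, reached by 4.31% and 4.30% of their length peers. Elavl1 has 8 in 4218 bases, which 0.282% of its peers reach. Rc3h2 holds 25 ATTTA in 5331 bases (1.65% of peers), Rc3h1 20 in 7181 bases (19.9%) and Zc3h12c 14 in 4062 bases (11.3%). Zc3h12a, with 3 ATTTA in 856 bases, has no TATTTAT, and neither do Zc3h12d and Arid5a, with 2 ATTTA each. The genes of the other members lie at chr4:125118423-125127840 (Zc3h12a), chr9:52111344-52168572 (Zc3h12c), chr10:7832470-7870396 (Zc3h12d), chr1:160906418-160974978 (Rc3h1), chr2:37370069-37422903 (Rc3h2) and chr1:36307733-36324029 (Arid5a) of mm10. The stem-loops read by regnases and roquins were not searched.

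All 10 members were detected in both libraries, most of them at low levels, and 2 of them stood apart between the libraries. A value in CPM is a gene's summed UMIs over the library total; a 3′ tag counts each molecule once whatever its length, but capture can differ between genes, so the main comparisons are within a gene. The rule of size asked for at least 20 CPM in 1 library and a 2-fold difference on the log2(CPM + 1) scale. Of the 8 members that reached 20 CPM, 1 was higher in the deficient-labelled library, against a background of 2.27% of 5584 genes. Another was lower, against a background of 2.08%. The other 6 lay within 2-fold, and Zc3h12d and Zfp36 stayed below 20 CPM in both. The median log2 ratio of all 10 members, the ones below 20 CPM included, was 0.05, beside 0.03 over all genes that reached 20 CPM.

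Zfp36l1, an AU-rich element binder also called BRF1, stood at 68.3 CPM (65.1 to 71.7) in the wild-type-labelled library and 247 CPM (240 to 254) in the deficient-labelled library. That is 3.61-fold higher in the latter (3.41 to 3.83), a log2 ratio of 1.84. After each cell was thinned to 5000 UMIs, a Zfp36l1 UMI was found in 23.4% of cells under the wild-type label and in 59.0% under the other, so the gene was both more often seen and more abundant. No cell type lacking these genes was present, so the share that free RNA gives was not measured. Zfp36l1 supplied 14.3% of the members' 477 CPM in the wild-type-labelled library and 38.4% of their 643 CPM in the other.

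In the library sums its paralogs did not share that difference. Zfp36l2, known for its part in lymphocyte quiescence, was at 26.3 and 28.2 CPM (ratio 1.07, 0.953 to 1.21). With equal weight for each cell, the Zfp36l2 log2 ratio was larger, at 0.43 for the mean of per-cell CPM and 0.63 for thinned cells. Zfp36, which encodes tristetraprolin, was at 9.81 and 9.89 CPM (ratio 1.01, 0.825 to 1.23). Zfp36 UMIs were also the most unevenly spread of the 10 members: the 5% of cells with most held 61.3% and 70.1% of them, up to 25 and 36 UMIs in a single cell, although only 14.1% and 12.6% of cells held any. For Elavl1 the same 5% share was 17.4% and 17.2%. This share also rises where a gene has few UMIs, and Zfp36 had 240 and 177 against 2974 and 2058 for Elavl1. No comparison at a matched level was made.

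Arid5a, the stabilising factor, moved the other way, with 52.8 CPM (49.96 to 55.8) in the wild-type-labelled library and 23.2 CPM (21.01 to 25.5) in the deficient-labelled one. The deficient-labelled level was thus lower by 2.28-fold (2.04 to 2.55), a log2 ratio of -1.15. The share of thinned cells with a UMI was 19.4% and 9.89%. The 2-fold mark was not reached when each cell had equal weight, with a log2 ratio of -0.95 for the mean of per-cell CPM and -0.87 for thinned cells.

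In the library sums the regnase genes differed less. Zc3h12a, the gene of Regnase-1, was at 46.0 CPM (43.3 to 48.7) and 52.3 CPM (49.0 to 55.8), and 21.4% and 21.2% of thinned cells held a UMI. Zc3h12c was at 17.1 CPM (15.5 to 18.9) and 24.1 CPM (21.9 to 26.5), a ratio of 1.41, with 4.58% and 8.31% of thinned cells positive. Over thinned cells its log2 ratio came to 1.07, past the 2-fold mark. Its UMIs were concentrated too, with 50.1% and 61.6% of them in the top 5% of cells. Zc3h12d was at 19.4 and 17.7 CPM (ratio 0.909, 0.786 to 1.05).

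The roquin genes and Elavl1 were nearly level between the libraries. Rc3h1 was at 78.8 CPM (75.4 to 82.4) and 91.8 CPM (87.4 to 96.3), with 31.7% and 34.1% of thinned cells positive. Rc3h2 was at 36.7 CPM (34.4 to 39.2) and 34.5 CPM (31.9 to 37.4). Elavl1 was at 122 CPM (117 to 126) and 115 CPM (110 to 120), and it was found in 46.8% and 44.1% of thinned cells. A thinned cell held UMIs of 2 members at the median in both libraries, and 11.9% and 8.60% of thinned cells held none.

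**Figure D1:**
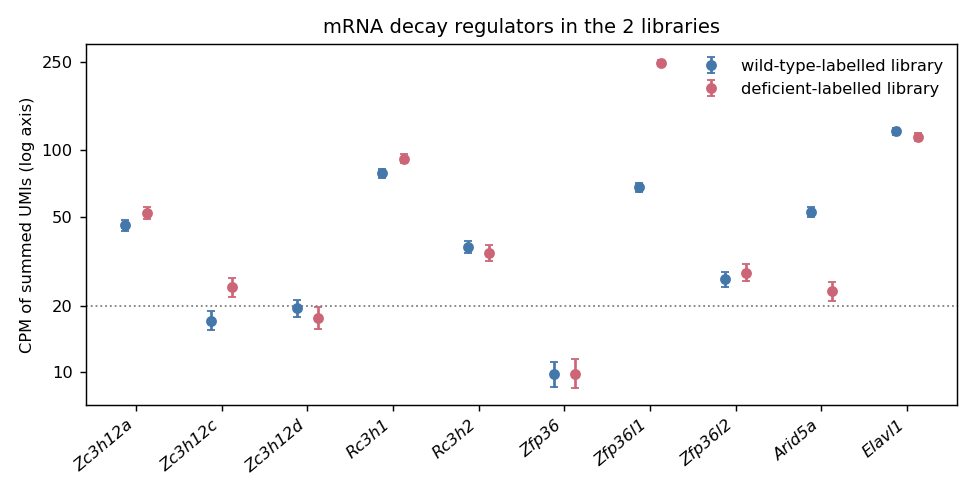
CPM of summed UMIs of each member (log axis) in the wild-type-labelled (blue) and deficient-labelled (red) library, with 95% exact Poisson intervals as bars and the 20 CPM mark dotted. Zfp36l1 stands at 68.3 and 247 CPM and Arid5a at 52.8 and 23.2 CPM, while Zfp36 lies below 10 CPM in both libraries.

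To relate the members to the cytokines, thinned cells were split by the cytokine alone: a producer held at least 5 UMIs of it per 5000. Il17a producers numbered 628 among 1004 cells in the wild-type-labelled library and 169 among 698 in the other. Ifng producers numbered 94 and 304, and Il2 producers 590 and 526. A member was counted as apart where it differed by at least 1.5-fold on log2(CPM + 1), with at least 20 CPM in 1 class. Producers were deeper than the other cells before thinning in all 6 splits, most for Ifng in the deficient-labelled library, with median UMIs of 24341 and 19491. Only cells of at least 5000 UMIs were thinned, which left out 14 and 11.

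By Il2, the same 5 members stood apart in the same direction in both libraries. Zc3h12a was higher in Il2 producers, and Zc3h12d, Zfp36, Zfp36l2 and Arid5a were lower. In the wild-type-labelled library 6 of 9 members at 20 CPM were apart, against a background of 13.1% of genes, and in the deficient-labelled library 6 of 10, against 25.9%. The 5 shared ones are of 9 members that reached 20 CPM in both, against a background of 8.28%. The median log2 ratio of all 10 members was -0.39 and -0.71, beside -0.09 and -0.15 over genes that reached 20 CPM.

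Zc3h12a was at 60.0 CPM in Il2 producers and 38.2 CPM in the other cells of the wild-type-labelled library, and at 61.6 and 32.6 CPM in the deficient-labelled one. The ratios were 1.57 (1.20 to 2.08) and 1.89 (1.26 to 2.94). Over bins of Il2 UMIs, it read 38.1, 38.2, 51.2, 58.1 and 74.8 CPM in wild-type-labelled cells with 0, 1 to 4, 5 to 19, 20 to 99 and 100 or more. In the deficient-labelled library the same bins read 34.9, 31.2, 62.7, 63.2 and 55.8 CPM. The level was thus higher from the third bin on in both libraries, with overlapping intervals between neighbouring bins. The unthinned sums of the same cells gave 53.5 and 36.3 CPM, then 56.8 and 36.0 CPM, the former below the 1.5-fold mark on the log2(CPM + 1) scale.

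Zfp36l2 showed the opposite order. It was at 16.6 CPM in Il2 producers and 35.3 CPM in the other cells of the wild-type-labelled library (ratio 0.471, 0.321 to 0.686), and at 21.7 and 88.4 CPM in the deficient-labelled library (ratio 0.245, 0.171 to 0.350). Without thinning the values were 14.7 and 40.9 CPM, then 18.9 and 61.2 CPM. Over the Il2 bins of the deficient-labelled library it read 73.0, 97.2, 23.7, 23.0 and 15.4 CPM, so the drop lay between the second and the third bin. In wild-type-labelled cells it read 41.2, 30.0, 27.9, 12.9 and 10.1 CPM.

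Zc3h12d, another regnase gene, was likewise lower in Il2 producers, at 10.8 against 27.1 CPM (ratio 0.401, 0.251 to 0.630) and 9.89 against 38.4 CPM (ratio 0.258, 0.148 to 0.444). Zc3h12d and Zfp36l2 were apart in both libraries under all 10 alternative settings tried. Arid5a was at 37.3 against 60.4 CPM (ratio 0.617, 0.474 to 0.804) and 16.7 against 51.2 CPM (ratio 0.327, 0.210 to 0.508), and was apart in both libraries under 6 of the 10. Zfp36 was at 8.14 against 26.1 CPM and 4.56 against 45.3 CPM, with ratios of 0.312 (0.184 to 0.513) and 0.101 (0.0480 to 0.196). Unthinned, the Zfp36 levels were 6.16 against 13.9 CPM and 4.95 against 27.4 CPM, the former pair below the 20 CPM mark. Zc3h12a was apart in both libraries under 4 of the 10 settings and Zfp36 under 6.

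For Zfp36 and Arid5a in the deficient-labelled library, the difference depended on where producers were divided from other cells. Over the Il2 bins from 0 to 100 or more, Zfp36 there read 15.9, 62.4, 3.39, 5.26 and 3.85 CPM. Of its 39 UMIs outside the producers, 34 lay in the bin of 1 to 4 Il2 UMIs, next to the cutoff, and 5 in the 63 cells without Il2. With a cutoff of 1 UMI its log2 ratio was -0.12, against -3.06 with 5. Arid5a read 31.7, 62.4, 25.4, 14.5 and 13.5 CPM over the same bins, and its log2 ratio of -1.56 became -0.36 with a cutoff of 1 UMI. In wild-type-labelled cells the Zfp36 bins read 25.8, 26.4, 9.30, 6.45 and 10.1 CPM, alike in the first 2, and a cutoff of 1 UMI gave a log2 ratio of -0.93.

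Markers of other cell types were low in every Il2 class. The B-cell list was at 1.61 CPM in wild-type-labelled Il2 producers and 5.39 CPM in the other cells, and at 1.22 and 2.03 CPM in the deficient-labelled library. The CD8 list was at 1997 and 2282 CPM, then 1945 and 2615 CPM. Since cytokine UMIs take a share of each cell's 5000, the totals were also taken without cytokine, chemokine, ribosomal protein and mitochondrial UMIs, and the same 5 members remained apart.

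The other members by Il2 were Zfp36l1, Zc3h12c, Rc3h1, Rc3h2 and Elavl1. Zfp36l1 was apart only in the wild-type-labelled library, at 60.7 against 95.7 CPM, and there the unthinned values of 65.2 and 71.7 CPM lay closer together. In the deficient-labelled library it was level, at 270 and 262 CPM. Zc3h12c was apart only in the deficient-labelled library, at 18.6 against 37.2 CPM (ratio 0.501, 0.314 to 0.808). Whether either ratio differed between the libraries was not tested. The ratios of Rc3h1, Rc3h2 and Elavl1 lay between 0.721 and 1.20, with every interval spanning 1.

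**Figure D2:**
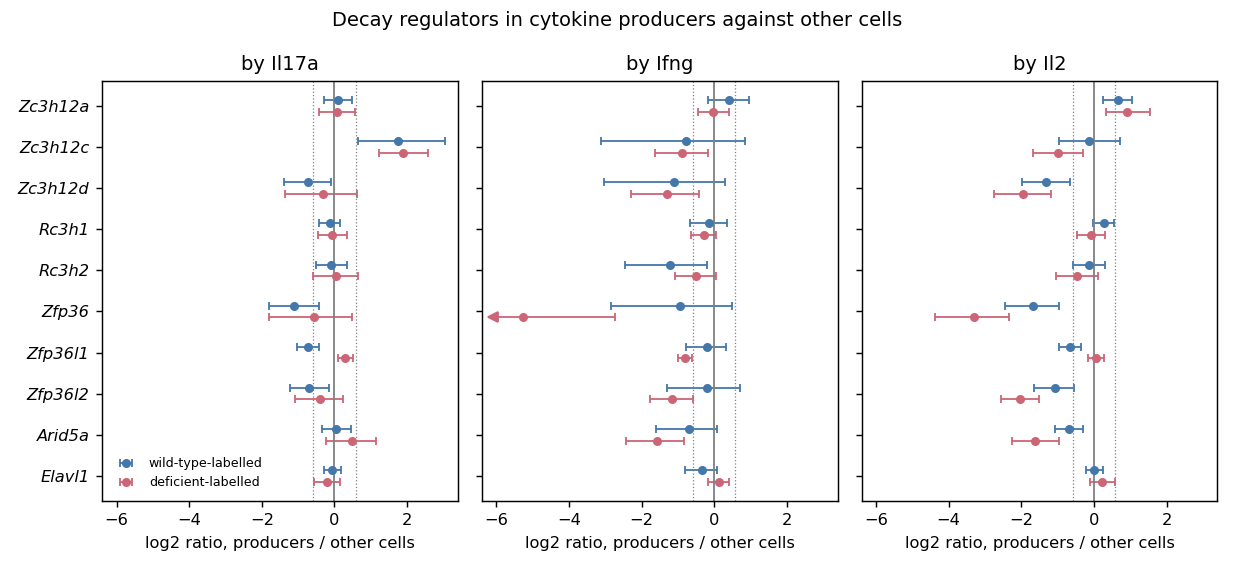
Log2 ratio of CPM, without a pseudocount, of each member in producers over other cells of the same library, by Il17a, Ifng and Il2 (5 or more UMIs per 5000), in wild-type-labelled (blue) and deficient-labelled (red) cells, with 95% counting intervals. Dotted lines mark 1.5-fold, and the arrow marks an interval that runs beyond the axis (Zfp36 by Ifng, 1 against 50 UMIs). Zfp36, Zfp36l2, Zc3h12d and Arid5a lie left of 0 by Il2 in both libraries and Zc3h12a right of it.

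By Il17a, no member was apart in the same direction in both libraries, against a background of 2.2% of genes and with 7 members at 20 CPM in both. In wild-type-labelled cells 4 of 9 members were lower in Il17a producers, against a background of 6.98%. In deficient-labelled cells 1 of 8 was higher, against 12.7%. The median log2 ratio of all 10 members was -0.10 and -0.01, beside -0.05 and 0.04 over genes that reached 20 CPM.

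Zc3h12c had the largest ratio by Il17a among the members in both libraries. It was at 52.1 CPM in producers and 14.0 CPM in other cells of the deficient-labelled library (44 and 37 UMIs; ratio 3.72, 2.35 to 5.93). In the wild-type-labelled library it was at 14.3 and 4.26 CPM (45 and 8 UMIs; ratio 3.37, 1.57 to 8.27), which kept it below the 20 CPM mark and out of the count. The unthinned sums gave 21.9 and 6.71 CPM there, past both marks, and 51.8 and 13.9 CPM in the deficient-labelled cells. Over the settings tried its log2 ratio ranged from 1.09 to 1.84 and from 1.10 to 2.21, and it was apart in both libraries under 4 of 10.

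The course over Il17a UMIs differed in shape. Deficient-labelled cells with 0, 1 to 4, 5 to 19, 20 to 99 and 100 or more Il17a UMIs held Zc3h12c at 13.9, 14.2, 23.5, 40.4 and 102 CPM. The last bin, of 41 cells and 21 UMIs, had an interval of 63.4 to 157 CPM. That interval lay only just above the fourth bin's, 24.3 to 63.1 CPM, and overlapped none of the others. Such intervals leave out the uneven spread of Zc3h12c, with 61.6% of its UMIs in the top 5% of these cells. In wild-type-labelled cells the bins read 2.82, 6.13, 15.0, 15.8 and 11.3 CPM, level from the third bin on. A Zc3h12c UMI was found in 17.2% of deficient-labelled Il17a producers and 5.48% of the other cells, and in 6.05% and 2.13% of the wild-type-labelled ones.

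Zfp36l1 was lower in Il17a producers of the wild-type-labelled library, at 60.2 against 100.0 CPM (ratio 0.602, 0.489 to 0.741). In the deficient-labelled library it was at 312 against 254 CPM (ratio 1.23, 1.06 to 1.42), within 1.5-fold but in the opposite direction. Unthinned, the levels were 61.3 and 82.9 CPM, then 273 and 237 CPM, both pairs within 1.5-fold. Il17a producers were thus the lower of the pair in one library and the higher in the other. Over the Il17a bins, wild-type-labelled cells read 93.0, 109, 45.0, 57.1 and 72.2 CPM, without a steady fall. The rank correlation of Zfp36l1 with Il17a over single cells was weak, at -0.04 and 0.08.

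The remaining members counted in wild-type-labelled cells were Zfp36, at 10.8 against 23.4 CPM, Zc3h12d, at 14.0 against 23.4 CPM, and Zfp36l2, at 19.7 against 31.9 CPM. In deficient-labelled cells the same genes were at 10.7 and 15.9 CPM, 14.2 and 17.8 CPM, and 30.8 and 40.5 CPM, with intervals of their ratios that span 1. Zfp36l2 reversed in the wild-type-labelled library when 1 Il17a UMI sufficed to call a producer. Arid5a was at 47.5 and 45.7 CPM, then 32.0 and 23.1 CPM. Zc3h12a, Rc3h1, Rc3h2 and Elavl1 had ratios between 0.873 and 1.07 in both libraries.

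By Ifng, members were lower in producers or within 1.5-fold, and none was counted as higher. In wild-type-labelled cells 2 of 7 were lower, against a background of 18.3% of genes either way, with only 94 producers. In deficient-labelled cells 6 of 10 were lower, against 19.7%. Arid5a alone was lower in both, of 7 members at 20 CPM in both and against a background of 5.13%. The median log2 ratio of all 10 members was -0.52 and -0.82, beside -0.09 and -0.21 over genes that reached 20 CPM. The wild-type-labelled median thus includes Zc3h12c, Zc3h12d and Zfp36, which lay below 20 CPM with 3, 4 and 4 UMIs in producers.

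Arid5a was at 11.8 CPM in deficient-labelled Ifng producers and 35.5 CPM in the other cells (ratio 0.333, 0.187 to 0.566). In wild-type-labelled cells it was at 29.8 and 48.6 CPM, with 14 UMIs in producers and an interval of 0.330 to 1.05 that includes 1. The unthinned sums there, 49.2 and 53.0 CPM, were nearly level. The shared call for Arid5a rests on those 14 UMIs and was made under 5 of 10 settings.

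In deficient-labelled cells, where Ifng producers were many, Zfp36l1 was at 189 CPM in producers and 329 CPM in the others (ratio 0.574, 0.498 to 0.661). Over bins of Ifng UMIs it read 340, 293, 200.0, 200.0 and 162 CPM, with the first bin's interval (311 to 370) above those of the last 3. Zfp36l2 was at 22.4 and 50.3 CPM (ratio 0.445, 0.292 to 0.663), Zc3h12d at 9.21 and 22.8 CPM (0.403, 0.204 to 0.748) and Zc3h12c at 15.8 and 28.9 CPM (0.546, 0.324 to 0.894). Zfp36 had 1 UMI in 304 producers and 50 UMIs in 394 other cells, a ratio of 0.0259 (0.000644 to 0.151). The unthinned Zfp36 sums of 3.59 and 16.2 CPM, from 32 and 145 UMIs, kept the direction with a difference that was much smaller.

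In wild-type-labelled cells Rc3h2 was the other member counted as lower by Ifng, at 17.0 against 39.6 CPM from 8 and 180 UMIs, and its unthinned values were 28.5 and 37.6 CPM. Zfp36l1 was at 66.0 and 76.0 CPM there, a ratio of 0.867 (0.580 to 1.25). Whether this ratio differed from that of the deficient-labelled library was not tested. Zc3h12a was at 66.0 and 49.5 CPM, then 53.9 and 54.8 CPM. Rc3h1 and Elavl1 had ratios between 0.785 and 1.09 in both libraries, with every interval spanning 1.

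**Figure D3:**
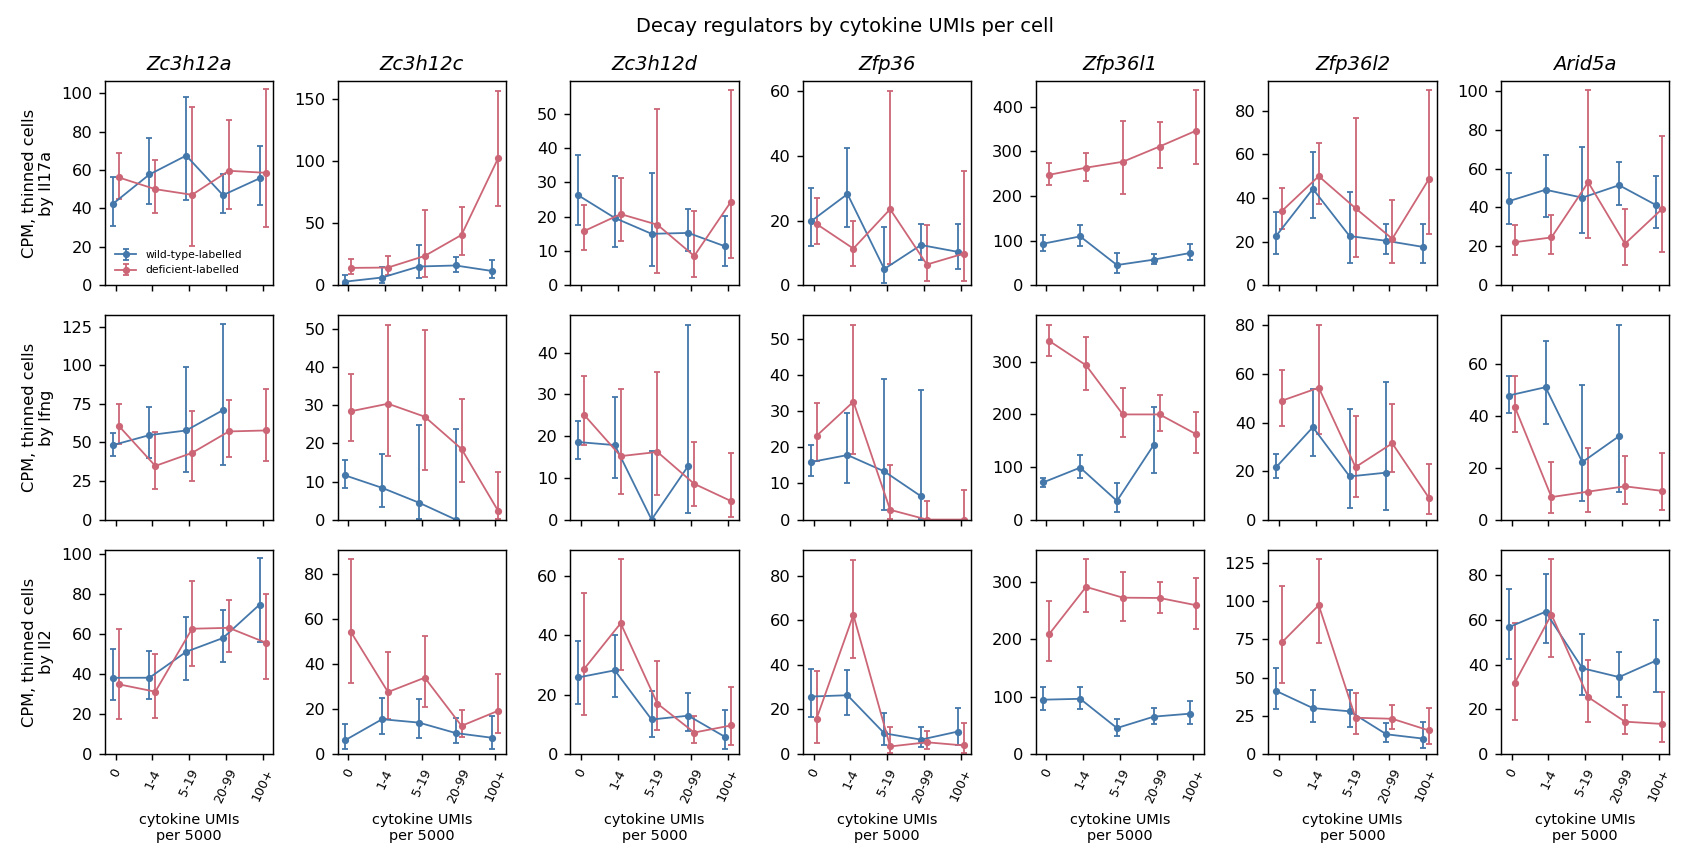
CPM of 7 members in thinned cells by the number of Il17a (top), Ifng (middle) and Il2 (bottom) UMIs per 5000, in wild-type-labelled (blue) and deficient-labelled (red) cells, with 95% exact Poisson intervals; each panel has its own linear axis, and bins under 20 cells are not drawn. Zc3h12c climbs to 102 CPM with Il17a and Zfp36l1 falls from 340 to 162 CPM with Ifng in deficient-labelled cells, and Zfp36l2 is lower from 5 Il2 UMIs on in the deficient-labelled library.

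Rank correlations over single cells were weak for the members where they were computed. These were members detected in at least 10% of thinned cells, which gave 18 member and cytokine pairs per library. The pairs were not all the same, as Arid5a entered only in the wild-type-labelled library and Zfp36l2 only in the other. Zfp36, Zc3h12c and Zc3h12d entered in neither. None of 18 reached an absolute rho of 0.15 over 1004 wild-type-labelled cells, against a background of 1.97% of gene and cytokine pairs. Over 698 deficient-labelled cells 2 of 18 did, against 3.5%. These were Zfp36l1 with Ifng, rho = -0.21, and Zfp36l2 with Il2, rho = -0.19. The same Zfp36l1 value in the wild-type-labelled library was -0.03, and the Zfp36l2 pair was not computed there. Zc3h12a with Il2 gave 0.10 and 0.07. All cells of a library share its preparation, and thinning evens out depth but not the zeros, so these values are descriptions. Among the 5 members detected widely enough in both libraries, the 10 pairwise values lay between -0.04 and 0.04 and between -0.02 and 0.08.

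Because the libraries differed in how many cells made each cytokine, the members were also compared between libraries within 7 classes of cells defined by all 3 cytokines. This was computed for the members alone, so no share over all genes stands beside the intervals. All 10 members were read in each class, so a lone interval that excludes 1 is picked out of many. Zfp36l1 was higher in the deficient-labelled library in each of the 7, and the interval excluded 1 in 6. The widest difference with more than 2 UMIs on both sides was in cells with Il17a and Il2 but little Ifng, at 57.8 and 372 CPM over 370 and 92 cells (ratio 6.43, 5.02 to 8.26). In cells low in all 3 cytokines it was at 139 and 280 CPM over 170 and 97 cells (ratio 2.02, 1.57 to 2.61). Cells with Ifng alone had 109 and 193 CPM over 22 and 29 cells (ratio 1.77, 0.872 to 3.82). Its paralog Zfp36l2 was also higher in the deficient-labelled library in cells low in all 3, at 47.1 and 132 CPM (ratio 2.80, 1.86 to 4.27). In the other classes the Zfp36l2 intervals included 1.

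For Arid5a the interval of the ratio included 1 in 6 of the 7 classes. In cells low in all 3 cytokines it was at 57.6 and 63.9 CPM (ratio 1.11, 0.683 to 1.77). In cells with Il2 alone it was at 39.0 and 19.6 CPM (ratio 0.503, 0.257 to 0.949), the only class of the 7 with an interval below 1. Cells with Il17a and Il2 had 37.8 and 26.1 CPM (ratio 0.689, 0.340 to 1.28). Whether the ratio differed between classes was not tested, and 5 of the 7 classes held 12 or fewer Arid5a UMIs in at least 1 library. Zc3h12c was higher under the deficient label with Il17a and Il2 (ratio 3.84, 2.01 to 7.32) and with Il17a alone (4.02, 1.95 to 8.16). In cells low in all 3 its ratio was 9.64 (2.10 to 89.5) from 2 and 11 UMIs. Its other intervals included 1. Elavl1 was lower with Il17a alone (0.541, 0.288 to 0.941). Rc3h2 had 0 and 5 UMIs with all 3 cytokines, an interval from 1.06 up.

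**Figure D4:**
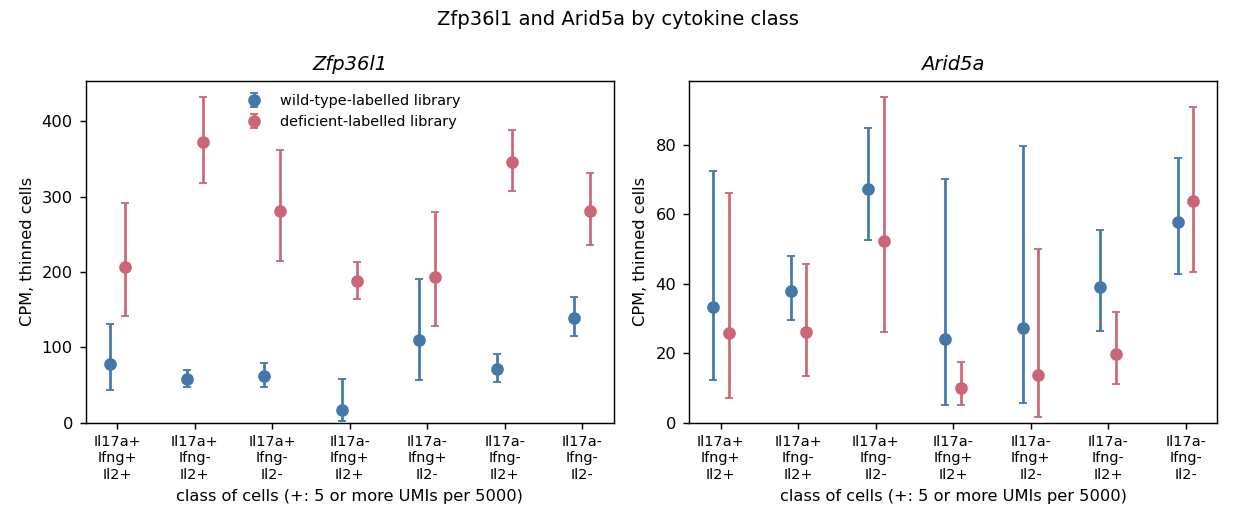
CPM of Zfp36l1 (left) and Arid5a (right) in thinned cells of 7 classes by Il17a, Ifng and Il2 (plus for at least 5 UMIs per 5000, minus for fewer), in the wild-type-labelled (blue) and deficient-labelled (red) library, with 95% exact Poisson intervals. Zfp36l1 is higher in the deficient-labelled library in each class, for example at 280 against 139 CPM in cells low in all 3 and 372 against 57.8 CPM with Il17a and Il2, although the intervals overlap in cells with Ifng alone, while Arid5a intervals overlap in each class.

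The genes whose counts followed a member most closely in both libraries, by the lower of the 2 rank correlations among 4622 genes, had low values throughout. For Zc3h12a they were Jak2 (0.13 and 0.14), a cytokine receptor kinase, Cd69 (0.12 and 0.14), an early activation marker, and Cd44 (0.10 and 0.11). For Zfp36l1 they were Rnf19a (0.17 and 0.15), the early response gene Nr4a3 (0.14 and 0.15) and the phosphatase gene Ptpn22 (0.13 and 0.15). Elavl1 was nearest to Tent4b (0.10 and 0.09), which encodes a poly(A) polymerase, Rc3h1 to Malat1 (0.11 and 0.12) and Rc3h2 to mt-Co1 (0.09 and 0.10).

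Among genes of the decay machinery that the members work with, none that reached 20 CPM passed 2-fold between the libraries. Genes of these lists below that level were not read. The shares over all genes were the 2.27% higher and 2.08% lower given above, at which none among 10 to 15 genes is no result about a list. Of the deadenylation genes 15 of 19 reached 20 CPM and none passed that mark. Among them Btg1, an antiproliferative partner of the deadenylase, was at 833 and 663 CPM and Cnot4 at 114 and 145 CPM. None of 15 decapping genes, 12 exosome genes or 13 other AU-rich element binders passed it either, with Xrn1, the 5′ exonuclease, at 37.7 and 27.5 CPM. Hnrnpll, which encodes an RNA-binding splicing regulator of T cells, came nearest at 49.6 and 83.4 CPM. None of 10 genes that act on the members passed, among them Malt1, the protease that cleaves Regnase-1, at 214 and 298 CPM, and Traf6 at 46.5 and 67.4 CPM. Of 14 known target transcripts at that level, a list that includes the cytokines themselves and was chosen with earlier results known, 1 was higher (Ifng) and 3 were lower (Il17a, Csf2 and Icos), with Csf2 at 75.5 and 26.5 CPM and Icos at 194 and 75.9 CPM.

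Within the libraries, the same lists were read against the share of all genes apart in both. By Il2, where that share was 8.28%, 4 of 12 target transcripts were apart, 2 higher (Tnf and Nfkbid) and 2 lower (Icos and Ctla4). The deadenylation and decapping lists had 1 lower gene each of 15 (Btg2 and Dcps), and the exosome genes, the other AU-rich element binders and the genes acting on the members had none of 12, 13 and 9. By Ifng, against 5.13%, 1 of 16 deadenylation genes (Cnot11) and 1 of 14 decapping genes (Xrn1) were lower, 1 of 13 targets (Csf2) was higher, and the other lists had none. By Il17a, against 2.2%, 1 of 13 other AU-rich element binders (Hnrnpll) was higher, 1 of 9 genes acting on the members (Malt1) was lower, and of 13 targets 1 was higher (Tnfrsf4) and 1 lower (Ifng).

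By Il17a, Hnrnpll was higher in producers, at 56.4 against 30.3 CPM and 125 against 71.1 CPM. Malt1 was lower, at 177 against 380 CPM and 221 against 361 CPM. By Il2, the quiescence gene Btg2 was lower, at 19.3 against 38.2 CPM and 25.1 against 45.3 CPM. Tnf, a classical target of tristetraprolin, was higher in Il2 producers, at 442 against 228 CPM and 675 against 236 CPM. Zfp36 was lower there, but its deficient-labelled log2 ratio of -3.06 became -0.12 with a cutoff of 1 UMI. Icos, a known roquin target, was lower in Il2 producers, at 139 against 297 CPM and 55.5 against 123 CPM, with Rc3h1 level. Whether the level of either target is linked to its regulator in these cells was not tested.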

How the data were processed

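UMI counts came from the 10x Genomics 3′ chemistry (v3.1 per the labels' protocols). They were deposited raw, as 1 gene-by-barcode matrix for each library, and the header of each file names Cell Ranger 7.0.0. The submitters' processing notes name the mm10 build. The gene annotation and any counting of introns were not given in the sources used here. Of 1149 and 754 barcodes, 1018 and 709 passed the limits of 500 genes (minimum) and 10% mitochondrial UMIs (maximum). Multiplexing tags, 3.83% and 4.20% of all counts, stayed out of the totals. Scrublet (scanpy 1.11.5) called 5 and 6 doublets (0.491% and 0.846%), which were kept.

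UMIs were summed per library and scaled to CPM. For classes, bins and correlations the UMIs of each cell were sampled down to 5000 without replacement. Log2 ratios use a pseudocount of 1 CPM, folds in the text none. Intervals are 95%: exact Poisson for sums, conditional binomial for ratios, exact binomial for shares. In the library sums 1 UMI is 0.0409 and 0.0559 CPM, and a count of 0 allows 0.123 and 0.168 CPM (3 counts). No test was run, with 1 library per group. The 2-fold rule between libraries was checked on simulated Poisson counts, which lack the spread between cells. The 1.5-fold rule and the rho rule were not checked in this way. All members are named, with Il17a, Ifng, Il2 and Nfatc1. From each other list the 2 highest and 2 lowest log2 ratios, and genes past 1.5-fold in both libraries, could be named. The members and lists were chosen with earlier results of these data known. Alternatives covered scaling (edgeR 4.0.16 TMM), totals, cutoffs, depths and filters. No member overlaps another counted gene on its strand in GENCODE M21. Analyses ran in Python 3.11.15 with NumPy 2.4.6, SciPy 1.17.1 and pandas 2.3.3, and in R 4.3.3.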

Additional observations from a re-analysis of the deposited data

Results flagged for a closer look

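Zfp36l1 differed in direction between the libraries when Il17a producers were set against other cells. Its log2 ratio was -0.723 in the wild-type-labelled library and 0.2994 in the deficient-labelled library, with 1 library on each side. The difference between these ratios was not tested.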

How the results depend on the processing

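Counts of members apart between libraries changed where each cell had equal weight: none was 2-fold lower by the mean of per-cell CPM or over thinned cells (0 each, where Arid5a had been 1), and 2 were 2-fold higher over thinned cells, with Zc3h12c added. By Il17a the count in both libraries was 0, and became 2 with thinning to 3000 UMIs, 1 with thinning to 8000, 2 with totals without cytokine and other bulky genes, and 1 with unthinned sums. By Ifng the count was 1, and became 0 at cutoffs of 1 and of 20 UMIs, 2 with thinning to 3000, 3 with totals without bulky genes and 2 with unthinned sums. By Il2 the count was 5, and became 2 at a cutoff of 1 UMI and 3 at a cutoff of 20, with thinning to 8000 and with unthinned sums. The 2 correlated pairs of the deficient-labelled library became 1 over cells with at least 1 cytokine UMI, where Zfp36l1 with Ifng gave -0.14. Zfp36l2 by Il17a in the wild-type-labelled library turned to 0.13 at a cutoff of 1 UMI. The cause of these changes was not tested. The other 51 values of such counts stayed within 1.5 times. Of single-member values 882 were labelled as staying, 63 as moved and 1 as reversed. A log2 ratio was labelled as staying where it lay inside the counting interval of its main value, whatever its sign. Changes of sign therefore also occur among values labelled as staying or moved. In the wild-type-labelled library at a cutoff of 1 UMI, Zfp36l2 by Ifng went from -0.20 to 0.55 (staying). Zc3h12c by Il2 went from -0.12 to 0.81 there (moved). Zfp36l1 between libraries stayed between 1.74 and 2.14 (log2), and Arid5a between -1.27 and -0.87; the 3 other scalings moved the median of all genes by -0.01, 0.01 and -0.003. The unthinned sums, the restriction to Il2 producers and that to cells of at least 10000 UMIs were added after seeing the data. No paired analysis was possible because each group is 1 library. Depth limits Zfp36, Zc3h12c and Zc3h12d most, where single bins hold few UMIs.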
